A study of Homo sapiens with 4 samples.

Results

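Genomic imprinting is expression of a gene from only the maternal or only the paternal copy, set by DNA methylation that is laid down in the egg or the sperm and kept in the embryo. Imprinted genes lie in domains in which a differentially methylated region controls several neighbouring genes, often through a long noncoding RNA. Many of them act in fetal growth, the placenta and the brain, and loss or gain of imprints is a known form of instability in cultured pluripotent stem cells. The set described here holds 37 imprinted genes of 33640 genes in all, chosen by symbol from known domains, and all of them were listed in the data. The counts are totals over both parental copies and over all cells of a sample, so the data do not show which allele a transcript came from, and fewer cells with a transcript cannot be told apart from less RNA per cell.

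The transcripts came from H9 cells, a human line of primed pluripotent stem cells, and all libraries share this line, extraction of nuclei, light fixation with formaldehyde and RT of poly(A) RNA. Reverse transcription (RT) was done after (Post) or before (Pre) tagmentation by Tn5, and the RNA was taken either together with DNA at H3K27me3 and H3K27ac (RNA and DNA) or on its own (RNA only). There were therefore 4 libraries, Post, RNA and DNA, Post, RNA only, Pre, RNA and DNA, and Pre, RNA only, with 1 library for each condition. No condition has a replicate, so the comparisons between libraries carry no p-value, and every interval below is a 95% interval for counting error only. Total counts were 10089552, 6368721, 8960724 and 9379073 in that order. Levels are given as RPM, that is counts per 1000000 counts of a library. Because nuclei were used, cytoplasmic RNA is not represented as in whole cells. The 10 markers of primed pluripotent cells summed to between 2072 and 2894 RPM, with L1TD1, PODXL, DPPA4 and LIN28A the most abundant. The summed levels of naive, trophoblast, endoderm, mesoderm and neural markers were at most 10.04, 4.02, 5.69, 2.67 and 2.28 RPM in any library. The library Post, RNA only stood apart, because 6 genes that carry the clone names FP236383 and FP671120 took 34.8% of its counts, against 10.7% to 15.8% in the other 3 libraries. For this reason every log2 ratio of a gene, taken after adding 1 RPM, has the median over 11564 genes subtracted, those that averaged 10 RPM or more, and it is called relative for short. Medians over a gene list take in genes down to an average of 1 RPM, and from them the median over the 21700 genes at that level is subtracted instead.

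The promoters shown next are those of 5 members whose start lies in or beside a region that is methylated on the maternal copy. They belong to a fixed list of members known for such a region set in the germ line, and those with a RefSeq window are printed. GRB10, L3MBTL1, DIRAS3 and GNAS also had windows but were not on that list. The levels of the printed members in these cells ranged from under 1 RPM to over 300 RPM. The sequences come from RefSeq on GRCh38.p14. Each is the 250 bases before a transcription start, taken at the start with the most CpG where a gene has several. Capitals mark the hexamer TGCCGC, or its reverse complement, which the zinc finger protein ZFP57 binds when it is methylated. SNRPN lies at chr15:24954737-24954986 on the plus strand, MEST at chr7:130491835-130492084 on the plus strand, PLAGL1 at chr6:144008260-144008509 on the minus strand, NAP1L5 at chr4:88697830-88698079 on the minus strand, and ZNF331 at chr19:53554363-53554612 on the plus strand.
SNRPN: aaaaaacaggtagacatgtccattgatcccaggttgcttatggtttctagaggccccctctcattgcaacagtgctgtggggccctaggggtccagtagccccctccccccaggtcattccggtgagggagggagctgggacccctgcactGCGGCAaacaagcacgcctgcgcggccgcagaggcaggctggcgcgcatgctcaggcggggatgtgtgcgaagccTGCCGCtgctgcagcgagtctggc
MEST: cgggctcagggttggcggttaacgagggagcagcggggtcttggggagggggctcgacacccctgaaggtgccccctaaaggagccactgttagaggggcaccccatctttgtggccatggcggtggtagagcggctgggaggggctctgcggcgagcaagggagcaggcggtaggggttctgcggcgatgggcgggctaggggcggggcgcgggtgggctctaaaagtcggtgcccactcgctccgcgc
PLAGL1: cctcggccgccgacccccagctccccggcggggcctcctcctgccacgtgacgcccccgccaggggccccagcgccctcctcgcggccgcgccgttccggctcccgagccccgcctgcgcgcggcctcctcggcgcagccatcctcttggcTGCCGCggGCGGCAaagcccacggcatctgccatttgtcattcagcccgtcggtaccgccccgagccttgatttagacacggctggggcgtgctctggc
NAP1L5: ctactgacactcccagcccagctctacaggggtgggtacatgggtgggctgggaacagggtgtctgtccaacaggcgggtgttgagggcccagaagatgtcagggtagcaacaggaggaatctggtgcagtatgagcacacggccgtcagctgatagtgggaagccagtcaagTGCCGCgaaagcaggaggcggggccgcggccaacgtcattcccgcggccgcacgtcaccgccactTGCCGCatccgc
ZNF331: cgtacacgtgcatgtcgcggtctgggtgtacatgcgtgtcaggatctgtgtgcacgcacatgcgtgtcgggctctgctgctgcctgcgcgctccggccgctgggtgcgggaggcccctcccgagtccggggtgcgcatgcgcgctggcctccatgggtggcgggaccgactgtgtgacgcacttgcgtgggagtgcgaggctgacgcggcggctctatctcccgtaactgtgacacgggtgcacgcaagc

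These windows held 12, 20, 32, 16 and 29 CpG in the order printed. The hexamer occurred 2 times each in SNRPN, PLAGL1 and NAP1L5 and 0 times in the MEST and ZNF331 windows printed. Another MEST start also had 20 CpG before it and 1 hexamer, and the start printed has more CpG when the 50 bases after it are included. SNRPN and NAP1L5 thus had windows of the same GC content (63.6%) and the same number of hexamers, while their mean levels were 99.3 and 0.211 RPM per kilobase of exon. Per kilobase of gene span these levels were 2.18 and 0.211 RPM. Of the 37 members, 23 were matched to the RefSeq promoters by symbol. Among these, 9 (39.1%) held the hexamer on either strand in the window with the most CpG, against 13.6% of 27305 genes treated in the same way, and their median was 29 CpG against 12. Taking the other MEST start would make it 1 member more. The 23 members had 57 windows and the 27305 genes had 35116. Counted over all windows, 28.1% against 12.7% held the hexamer, and the medians were 15 against 11 CpG. These shares were not matched for CpG or for the number of starts per gene. In the window with the most CpG, the median was 30.5 CpG in the 14 matched members that averaged 10 RPM or more and 13 CpG in the 9 below it. All genes were not split by level in this way, and SNHG14 and SNRPN, the most abundant members, had only 4 and 12 CpG. The only SNHG14 window, 15:24823358-24823607, lies before the annotated start of SNRPN (15:24823637) and not at the annotated SNHG14 start (15:24978583). A match of letters describes the window and does not show binding or methylation. CDKN1C, DLK1, GNAS-AS1, IGF2, KCNK9, KCNQ1, KCNQ1OT1, NNAT, PEG10, PEG3, PHLDA2, SGCE, SLC22A18 and TRAPPC9 had no match.

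The members ranged from among the most abundant genes of these nuclei to a few counts per library. A mean of 10 RPM or more was reached by 20 of 37 members (54.1%), against 34.4% of all genes. Another 7 members had means between 1 and 10 RPM, and the remaining 10 were under 1 RPM. By the parental copy usually used, 9 of 19 paternally expressed members, 3 of 10 maternally expressed members and 8 of 8 members whose allele varies between tissues or isoforms reached 10 RPM. All 37 together took 0.658% of the counts of Post, RNA and DNA (exact binomial interval 0.654% to 0.663%), 0.508% of Post, RNA only (0.503% to 0.514%), 0.611% of Pre, RNA and DNA (0.606% to 0.617%) and 0.61% of Pre, RNA only (0.605% to 0.615%). A single member, SNHG14, made up 62.2% to 68.0% of these counts. Without SNHG14 the share was 0.225% and 0.162% in the Post libraries with and without DNA, against 0.230% and 0.231% in the Pre libraries with and without DNA.

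**Figure D1:**
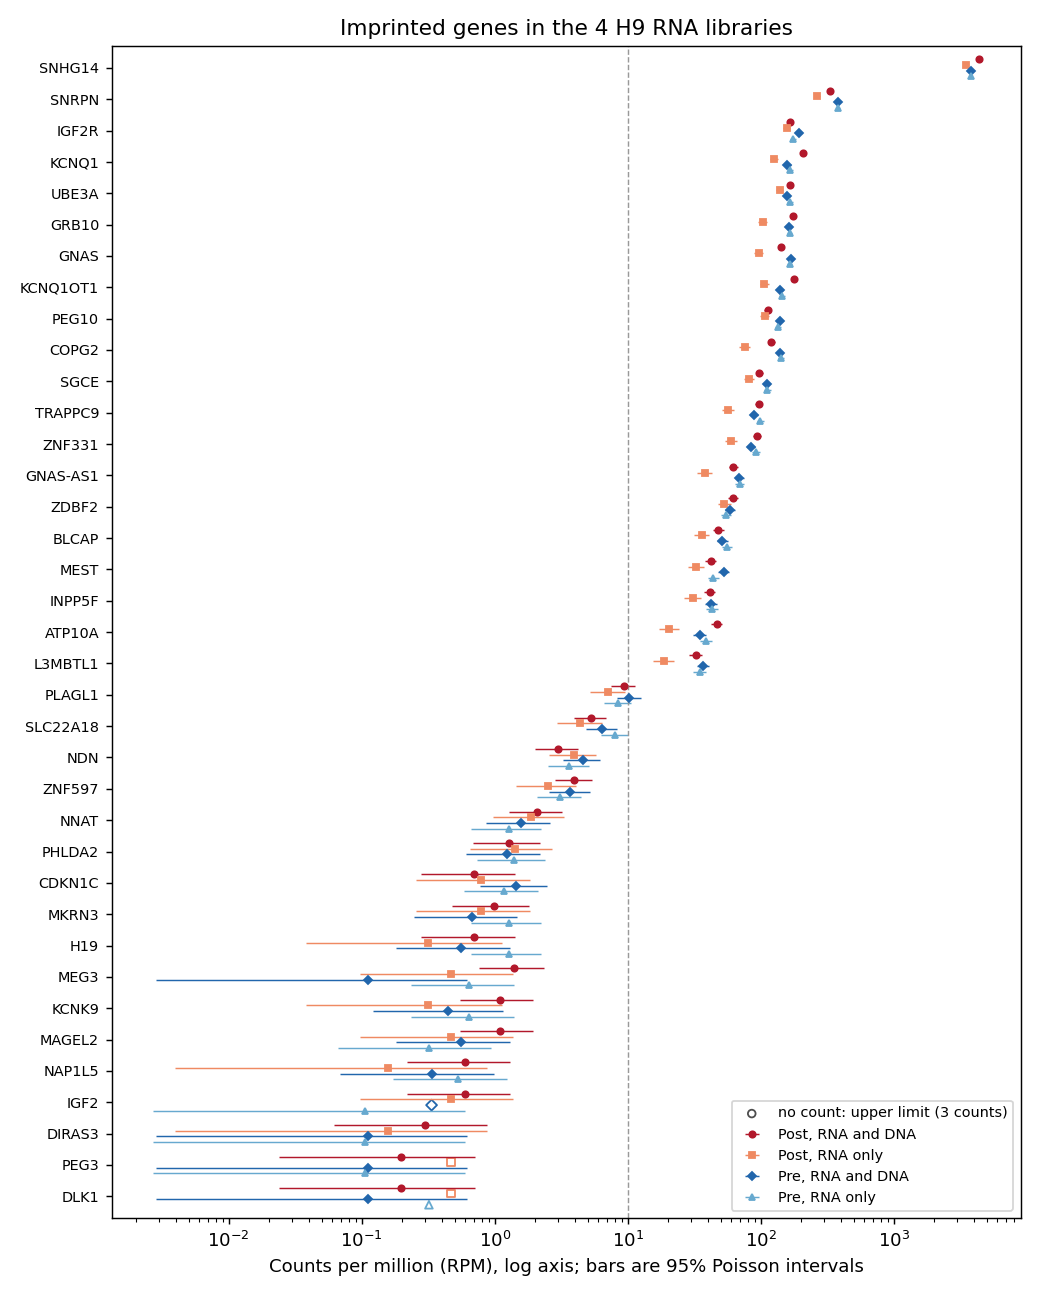
Level of each of the 37 imprinted genes in the 4 libraries, in RPM on a log axis, with 95% Poisson intervals for counting error as bars, open symbols at the upper limit where no count was found, and a dashed line at 10 RPM. The upper 20 genes lie right of the line in every library, and the 10 lowest lie near or under 1 RPM with wide intervals; gene length is not taken out of these values.

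The Prader-Willi and Angelman domain of chromosome 15 held the most abundant members. SNHG14 (15:24978583-25420336, plus strand) is the long noncoding host transcript of the SNORD115 and SNORD116 small nucleolar RNAs, and in neurons its distal part runs antisense to UBE3A. It had 4337 and 3459.9 RPM in the Post libraries with and without DNA, against 3817 and 3796 RPM in the Pre libraries with and without DNA. By RPM, with length not taken out, it ranked between 5th and 8th of all 33640 genes in each library. SNRPN (15:24823637-24978723) encodes the splicing protein SmN. The imprinting centre lies at the SNRPN start whose window is printed above, which is inside this span and not at its annotated beginning. SNRPN had 330.3 and 263.6 RPM in the Post libraries against 379.8 and 379.6 RPM in the Pre libraries. The order of with and without DNA is the same and is kept throughout. SNURF, an upstream reading frame of the same transcript, had 254.7 and 186.2 RPM against 284.1 and 294.7 RPM, and its reads can overlap those of SNRPN.

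Per kilobase of exon, a scale that takes transcript length out, the order within the domain was different. SNRPN averaged 99.3 RPM per kilobase of exon over the 4 libraries, SNHG14 31.4, UBE3A 8.23, NDN 1.98, ATP10A 1.70, MAGEL2 0.141 and MKRN3 0.131. SNRPN was at percentile 99.7 and SNHG14 at percentile 97.1 of all genes with a known length on this scale. Per kilobase of gene span the order of these 2 was reversed, with 8.72 for SNHG14 and 2.18 for SNRPN. The annotated exons of SNHG14 sum to 122.6 kb, so its counts are spread over a long annotated transcript.

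UBE3A (15:25333728-25439051, minus strand), the ubiquitin ligase lost in Angelman syndrome and imprinted only in neurons, had 165.0 and 138.5 RPM in the Post libraries against 158.4 and 164.9 RPM in the Pre libraries. Per kilobase of exon SNHG14 gave 3.57 to 4.08 times the level of UBE3A, whose span it overlaps on the opposite strand. The strand setting of the counting is not given in the sources used here, so reads from the overlap cannot be assigned to either gene with certainty. ATP10A, a phospholipid flippase gene farther along the domain, had 46.6 and 20.6 RPM against 34.7 and 38.5 RPM. Post, RNA only was the lowest library, as for every member that averaged 10 RPM or more.

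The paternally expressed genes on the other side of the SNRPN imprinting centre were low in all libraries. NDN, a MAGE family gene expressed in neurons, had 30 and 25 counts (2.97 and 3.93 RPM) in the Post libraries against 41 and 34 counts (4.58 and 3.63 RPM) in the Pre libraries. MAGEL2, a partner of ubiquitin ligases in protein recycling from endosomes, had 11 and 3 counts against 5 and 3 counts. MKRN3, an inhibitor of the onset of puberty, had 10 and 5 counts against 6 and 12 counts. SNRPN exceeded NDN by 37.6 to 62.1 times per kilobase of exon in the 4 libraries. Per kilobase of gene span the means were close, with 2.18 RPM for SNRPN and 1.98 RPM for NDN. NPAP1, another imprinted gene of this side, averaged 0.525 RPM, or 0.069 RPM per kilobase of exon. PWRN1, a noncoding gene whose annotation reaches up to SNRPN, averaged 46.5 RPM. Per kilobase of exon PWRN1 had 1.92, close to the 1.98 of NDN, but per kilobase of span it had only 0.065. The neighbours CYFIP1, NIPA1, NIPA2 and TUBGCP5, which are not known as imprinted and lie beyond these genes, averaged 2.91 to 6.52 RPM per kilobase of exon. At the other end HERC2 averaged 17.5, but OCA2 next to it had only 1.48, below NDN. Per kilobase of span NDN was above all of these neighbours, which had 0.014 (OCA2) to 1.67 (HERC2). MAGEL2 and MKRN3 had 0.141 and 0.014 on that scale, so the order here depends on the length used.

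**Figure D2:**
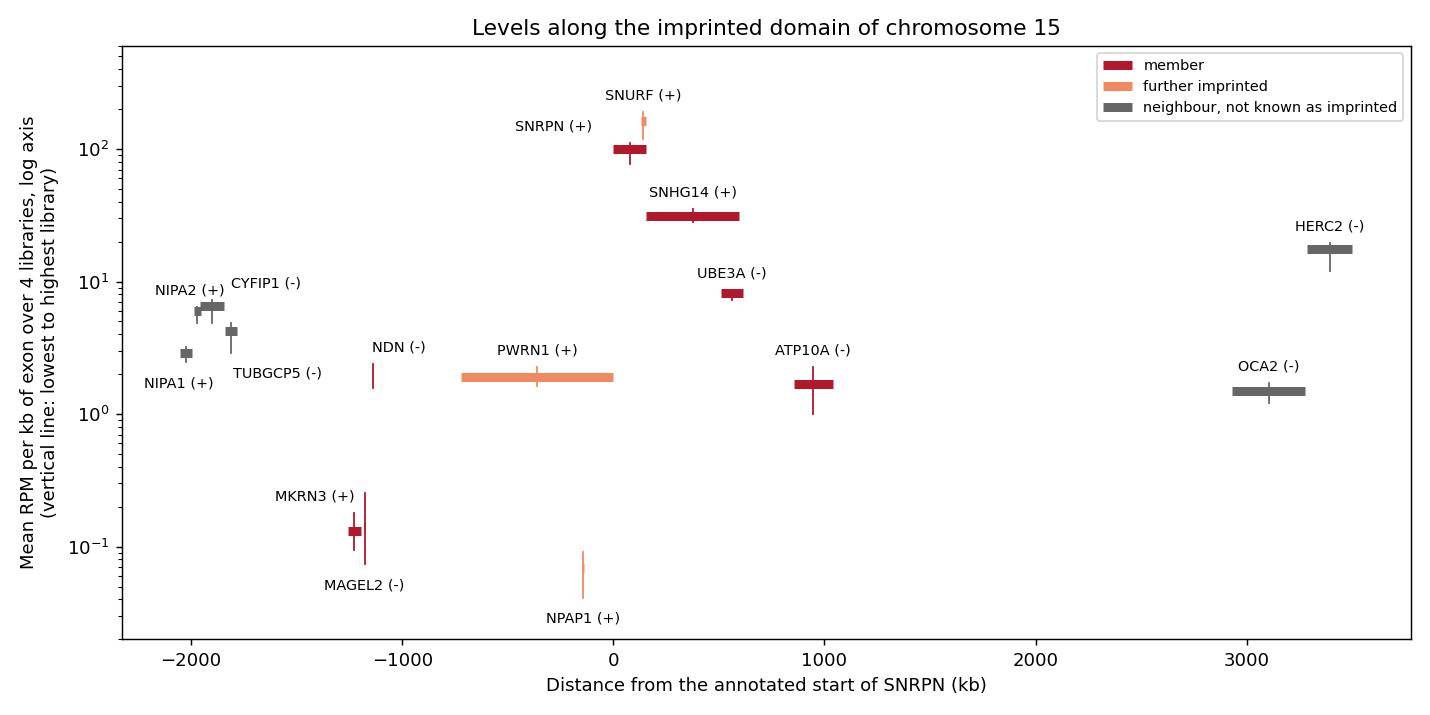
Mean RPM per kilobase of exon over the 4 libraries (log axis) against distance from the annotated start of SNRPN in kb, with each gene as a bar over its span and a vertical line for the lowest to the highest library. Members are red, other imprinted genes orange and neighbours not known as imprinted grey, and the strand is in brackets; MKRN3 and MAGEL2 lie under 1 RPM per kilobase and SNRPN near 100.

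On chromosome 11 the members of the KCNQ1 domain differed widely in RPM, and their order changed once length was taken out. KCNQ1OT1 (11:2597308-2700003, minus strand) is the paternally transcribed noncoding RNA that silences the genes around it in cis, and it starts within KCNQ1 (11:2444654-2849105, plus strand), a potassium channel gene. KCNQ1OT1 had 178.9 and 106.5 RPM in the Post libraries against 139.1 and 144.6 RPM in the Pre libraries. KCNQ1 had 207.3 and 125.1 RPM against 158.6 and 164.8 RPM. The counts of KCNQ1 were 1.14 to 1.18 times those of KCNQ1OT1 in every library, an excess of 287 and 119 counts in the Post libraries against 175 and 190 counts in the Pre libraries. All 102.7 kb of KCNQ1OT1 lie inside KCNQ1, so how much of the KCNQ1 value is antisense reads cannot be told apart here. Its level changes with the length used, from percentile 97.8 per kilobase of exon to percentile 56.2 per kilobase of span, while KCNQ1OT1 stood at percentile 45.5 and percentile 85.1.

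Of the maternally expressed members of this domain, CDKN1C, PHLDA2 and SLC22A18 were under 10 RPM, while KCNQ1 itself was not. CDKN1C, an inhibitor of cyclin-dependent kinases that restrains growth, had 7 and 5 counts in the Post libraries against 13 and 11 counts in the Pre libraries. PHLDA2, a growth inhibitor of the placenta, had 13 and 9 counts against 11 and 13 counts. SLC22A18, an organic cation transporter gene, had 5.25 and 4.40 RPM against 6.36 and 7.997 RPM. On the scale of RPM per kilobase of exon PHLDA2 had 1.44, SLC22A18 1.15 and CDKN1C 0.414, and KCNQ1OT1, with its long exon, had 1.54. OSBPL5, a further imprinted gene nearby, averaged 18.5 RPM. NAP1L4, a neighbour on the list of genes not known as imprinted, averaged 162 RPM (length not taken out).

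The pairs that are controlled by methylation from sperm had at most 14 counts in any library. H19, the maternally expressed noncoding RNA, had 7 and 2 counts in the Post libraries against 5 and 12 counts in the Pre libraries, and IGF2, the paternally expressed fetal growth factor next to it, had 6 and 3 counts against 0 and 1 count. On chromosome 14 the maternally expressed noncoding RNA MEG3 had 14 and 3 counts against 1 and 6 counts. DLK1, the paternally expressed inhibitor of differentiation in that domain, had 2 and 0 counts against 1 and 0 counts. Taken as 3 counts, the upper limit for a count of 0 was 0.471 RPM in Post, RNA only, 0.335 RPM in Pre, RNA and DNA and 0.320 RPM in Pre, RNA only. The intervals of these genes overlap between all libraries, except that the interval of MEG3 was 0.759 to 2.33 RPM in Post, RNA and DNA against 0.00283 to 0.622 RPM in Pre, RNA and DNA. The related MEG8, RTL1 and MEG9 of the MEG3 domain averaged 0.909, 0.249 and 0.143 RPM.

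Among receptors and partners of IGF2, RNA of the receptors was abundant, whereas IGF2 itself had at most 6 counts. IGF2R, the receptor that clears IGF2 and is imprinted in mice but only in some people, had 164.4 and 156.4 RPM in the Post libraries against 193.2 and 173.7 RPM in the Pre libraries. GRB10, an adaptor that dampens insulin and IGF signalling, had 173.3 and 103.2 RPM against 163.0 and 164.3 RPM. A list of 14 genes took in IGF receptors, their signalling and proteins that bind IGF2 or its mRNA. Of these, 13 were in the files and 9 had a mean of at least 10 RPM. The most abundant 4 were IGF1R and the mRNA-binding IGF2BP3, IGF2BP1 and IGF2BP2, with means of 591, 573, 409 and 406 RPM. Among the listed IGFBP genes, which encode proteins that bind the growth factor, the highest mean was 125 RPM (IGFBP2).

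PEG10 and SGCE on chromosome 7, whose annotated starts lie 247 bases apart on opposite strands, were both transcribed. PEG10, a gene of retrotransposon origin needed for the placenta, had 112.6 and 107.2 RPM in the Post libraries against 138.7 and 134.7 RPM in the Pre libraries. SGCE, the epsilon-sarcoglycan gene of myoclonus dystonia, had 97.3 and 81.2 RPM against 111.0 and 111.5 RPM. Per kilobase of exon PEG10 exceeded SGCE by 3.61 to 4.12 times.

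MEST, a gene of the alpha/beta hydrolase fold, had 42.0 and 32.7 RPM in the Post libraries against 52.7 and 43.9 RPM in the Pre libraries. COPG2, a coatomer gene that runs towards MEST from the other strand, had 120.1 and 75.4 RPM against 138.7 and 141.7 RPM. Their annotated ends overlap. The noncoding MESTIT1 beside them averaged 7.01 RPM.

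On chromosome 20 a gene of few counts lay within one of more counts. NNAT, a small membrane proteolipid of the developing brain, lies inside BLCAP and had 21 and 12 counts (2.08 and 1.88 RPM) in the Post libraries against 14 and 12 counts (1.56 and 1.28 RPM) in the Pre libraries. BLCAP, a putative tumour suppressor, had 48.0 and 36.0 RPM against 51.3 and 55.9 RPM. GNAS, which encodes the stimulatory G protein subunit and has imprinted alternative first exons, had 141.7 and 96.4 RPM against 167.8 and 164.2 RPM. GNAS-AS1, the antisense transcript of that domain, had 62.0 and 38 RPM against 68.9 and 69.3 RPM, and L3MBTL1, a chromatin reader of methylated histones, had 32.4 and 18.7 RPM against 36.8 and 34.7 RPM. Total counts per symbol do not separate the imprinted first exons of GNAS from the biallelic one.

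ZNF331, a zinc finger gene, had 93.4 and 59.4 RPM in the Post libraries against 84.1 and 91.9 RPM in the Pre libraries. ZDBF2, a zinc finger gene linked to growth after birth in mice, had 61.8 and 53.2 RPM against 58.4 and 54.9 RPM. INPP5F, an inositol phosphatase gene, had 41.3 and 30.8 RPM against 42.1 and 43.0 RPM. TRAPPC9, a subunit of a vesicle tethering complex, had 96.5 and 57.0 RPM against 88.6 and 99.4 RPM. Post, RNA only had the lowest plain RPM for each of these genes, as for every member that averaged 10 RPM or more. In Post over Pre, RNA only, the median log2 ratio of all genes at that level was -0.44 before subtraction.

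PLAGL1, a zinc finger regulator of growth, was just under the limit of 10 RPM, with 9.32 and 7.07 RPM in the Post libraries against 10.3 and 8.42 RPM in the Pre libraries. ZNF597, also a zinc finger gene, averaged 3.31 RPM. PEG3, NAP1L5, DIRAS3 and KCNK9 had 0 to 11 counts in any library and means of 0.104, 0.405, 0.168 and 0.623 RPM. PEG3 is a zinc finger gene of maternal behaviour in mice, DIRAS3 a small GTPase of the RAS family, and KCNK9 a potassium channel gene.

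The factors that keep imprints were measured as well, from a list of 20, of which 13 reached 10 RPM. DNMT3B, CBX5, ARID4B and ATF7IP were the most abundant 4, with means of 498, 262, 255 and 239 RPM. The hexamer of ZFP57 is marked in the sequences above. ZFP57 had 4 and 0 counts (0.396 and 0 RPM) in the Post libraries against 8 and 8 counts (0.893 and 0.853 RPM) in the Pre libraries. Its intervals overlapped between all libraries. ZNF445, the other zinc finger protein that is known to hold imprints in humans, had 51.8 and 33.1 RPM against 50.0 and 48.5 RPM. TRIM28, their corepressor, averaged 128 RPM. Of 33 further imprinted genes 26 were in the files and 8 reached 10 RPM, and SNURF, PPP1R9A, DLGAP2 and RB1 were the most abundant. Of 24 neighbours not known as imprinted all 24 were in the files and 16 reached 10 RPM, led by HERC2, NAP1L4, STX16 and CYFIP1.

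The first question of the design was whether the order of RT and tagmentation alters RNA levels. In Post over Pre, RNA only, 0 of the 20 members that averaged 10 RPM or more lay 2-fold or more from the all-gene median, where 1.38% of all 11564 genes did. In Post over Pre, RNA and DNA the count was again 0 of 20, with 0.251% of all genes. The members' log2 ratios ranged from -0.46 (COPG2) to 0.39 (ZDBF2) without DNA and from -0.23 (MEST) to 0.51 (ATP10A) with DNA. The medians over the 27 members that averaged 1 RPM or more were -0.08 without DNA and -0.05 with DNA, where the 21700 genes at that level have a median of 0 by construction. Before subtraction the median of these 21700 genes was -0.36 without DNA and -0.05 with DNA, and that of the 11564 genes was -0.44 and -0.09, so without DNA a gene at a relative ratio of 0 has fewer RPM in the Post library than in the Pre library.

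SNHG14 had a positive relative log2 ratio with and without DNA. The ratio was 0.30 (interval 0.28 to 0.33) without DNA and 0.28 (0.26 to 0.30) with DNA, a relative fold of 1.23 and 1.21. Its plain RPM without DNA was lower in the Post library, with a log2 ratio of -0.13 before subtraction. UBE3A followed with 0.19 (0.07 to 0.31) and 0.15 (0.05 to 0.26), and ZDBF2 with 0.39 (0.20 to 0.59) and 0.18 (0.01 to 0.34). SNRPN, upstream of SNHG14, had -0.09 (-0.17 to -0.002) and -0.11 (-0.18 to -0.04), so that the RPM of SNHG14 over that of SNRPN was 13.13 and 13.12 in the Post libraries against 10.05 and 10.002 in the Pre libraries. GNAS had negative ratios without and with DNA, -0.32 (-0.46 to -0.19) and -0.15 (-0.25 to -0.04). Each of these values rests on 1 library per condition.

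KCNQ1OT1 and KCNQ1 were near the all-gene median without DNA, at 0.00 (-0.13 to 0.13) and 0.04 (-0.08 to 0.17). With DNA they were at 0.46 (0.35 to 0.56) and 0.48 (0.38 to 0.58). ATP10A was at -0.43 (-0.72 to -0.15) without DNA and at 0.51 (0.30 to 0.71) with DNA. COPG2, GNAS-AS1 and L3MBTL1 were at -0.46, -0.41 and -0.42 without DNA, and their values with DNA were -0.11, -0.05 and -0.09. PEG10 and SGCE, which share a start region, were at 0.11 and -0.02 without DNA and at -0.20 and -0.09 with DNA.

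The second question was whether taking DNA along alters the RNA. In RNA and DNA over RNA only, Pre, 0 of 20 members lay 2-fold or more from the all-gene median, with 0.0173% of all genes, and the members ranged from -0.19 (TRAPPC9) to 0.23 (MEST). In RNA and DNA over RNA only, Post, 0 of 20 were, with 2.36% of all genes, and the members ranged from -0.31 (PEG10) to 0.76 (ATP10A). The medians over 27 members were -0.02 and 0.01. These comparisons use the same 4 libraries as those of the order of RT, so they are no second measurement.

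ATP10A in RNA and DNA over RNA only, Post, had 470 counts against 131 counts, a log2 ratio of 0.76 (0.49 to 1.04) and a fold of 1.70 relative to the median. Among the 20 members that averaged 10 RPM or more it was the only one past 1.5-fold in any of the 4 comparisons, where 8.97% of all genes were past 1.5-fold in that comparison. In the others 0 of 20 members were, against 7.26% of all genes in Post over Pre, RNA only, 3.12% in Post over Pre, RNA and DNA and 0.216% in RNA and DNA over RNA only, Pre. The next members in the Post libraries were L3MBTL1 (0.39), TRAPPC9 (0.37), GRB10 (0.37), KCNQ1OT1 (0.37) and KCNQ1 (0.35), and the lowest were PEG10 (-0.31) and IGF2R (-0.31). Of the 17 members under 10 RPM, MEG3 alone was 2-fold or more from the median in a comparison, at 1.2 (0.48 to 1.40) in Post over Pre, RNA and DNA, on 14 counts against 1 count.

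**Figure D3:**
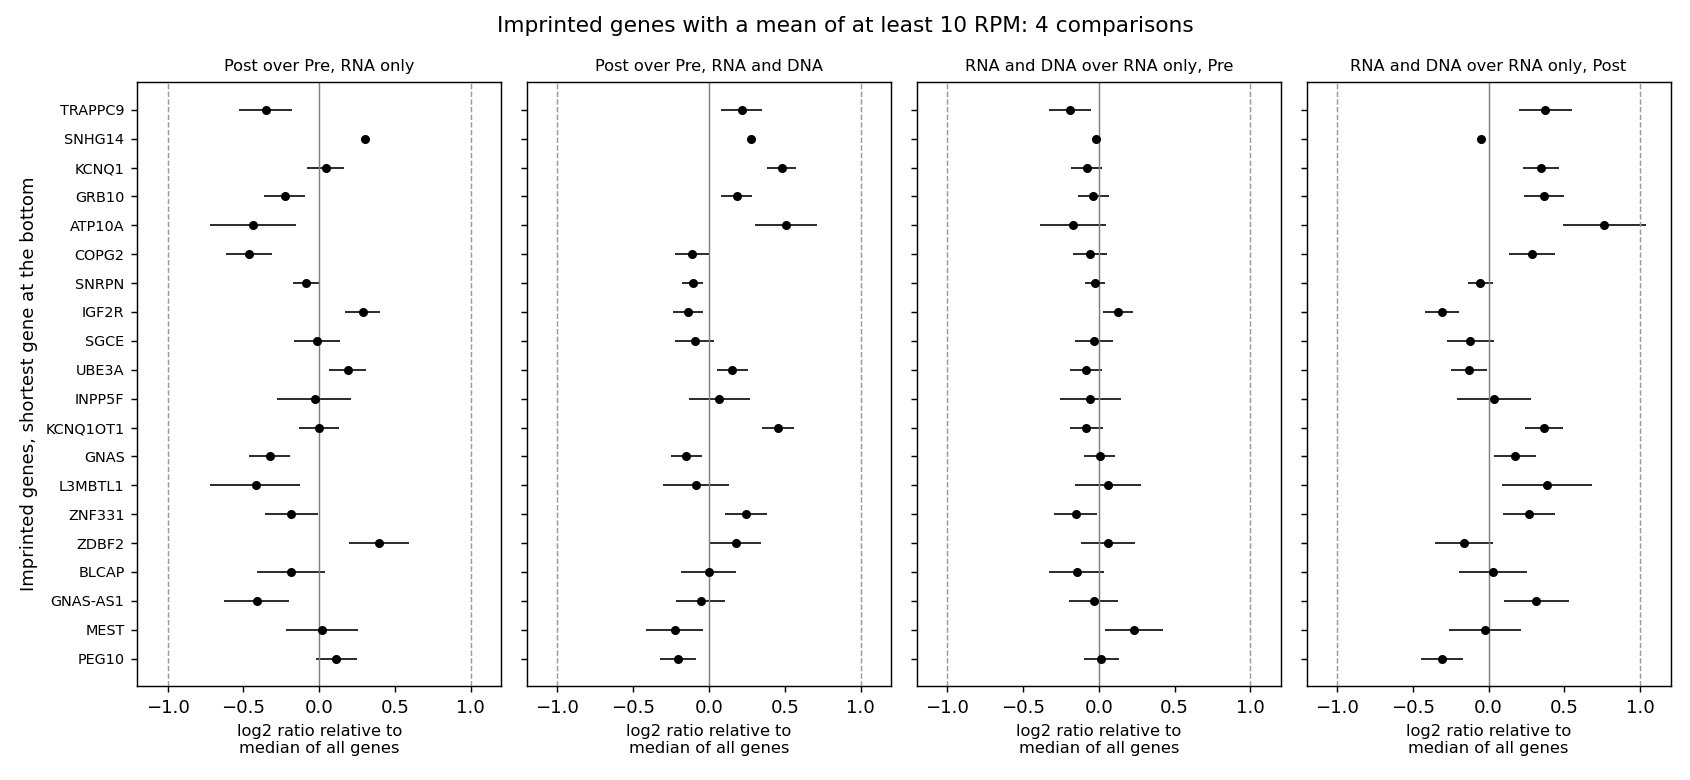
Log2 ratio of each of the 20 imprinted genes that averaged 10 RPM or more, after subtraction of the all-gene median, in the 4 comparisons, with 95% intervals for counting error and dashed lines at 2-fold. All points lie between the dashed lines, the points of RNA and DNA over RNA only in the Pre libraries lie closest to 0, and ATP10A lies farthest right in the Post libraries.

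Gene span moved with the ratios over all genes, and the members were read beside it. Over 10262 genes with a known span the Spearman correlation between span and ratio was 0.49 in Post over Pre, RNA and DNA, and -0.32 in Post over Pre, RNA only. Over the 20 members it was 0.49 and -0.10, as a description of genes that share the same libraries. With DNA the shortest of these 20 members, PEG10 (13.4 kb) and MEST (20.3 kb), were at -0.20 and -0.23. The group of all genes with a median span of 14.7 kb had a median ratio of -0.14. The long KCNQ1 (404 kb) and SNHG14 (442 kb) were at 0.48 and 0.28, and the group of all genes with a median span of 395 kb had a median ratio of 0.16. TRAPPC9 (731 kb), the longest member, was at 0.22 with DNA and at -0.35 without DNA. The part of gene span in these ratios was not tested.

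**Figure D4:**
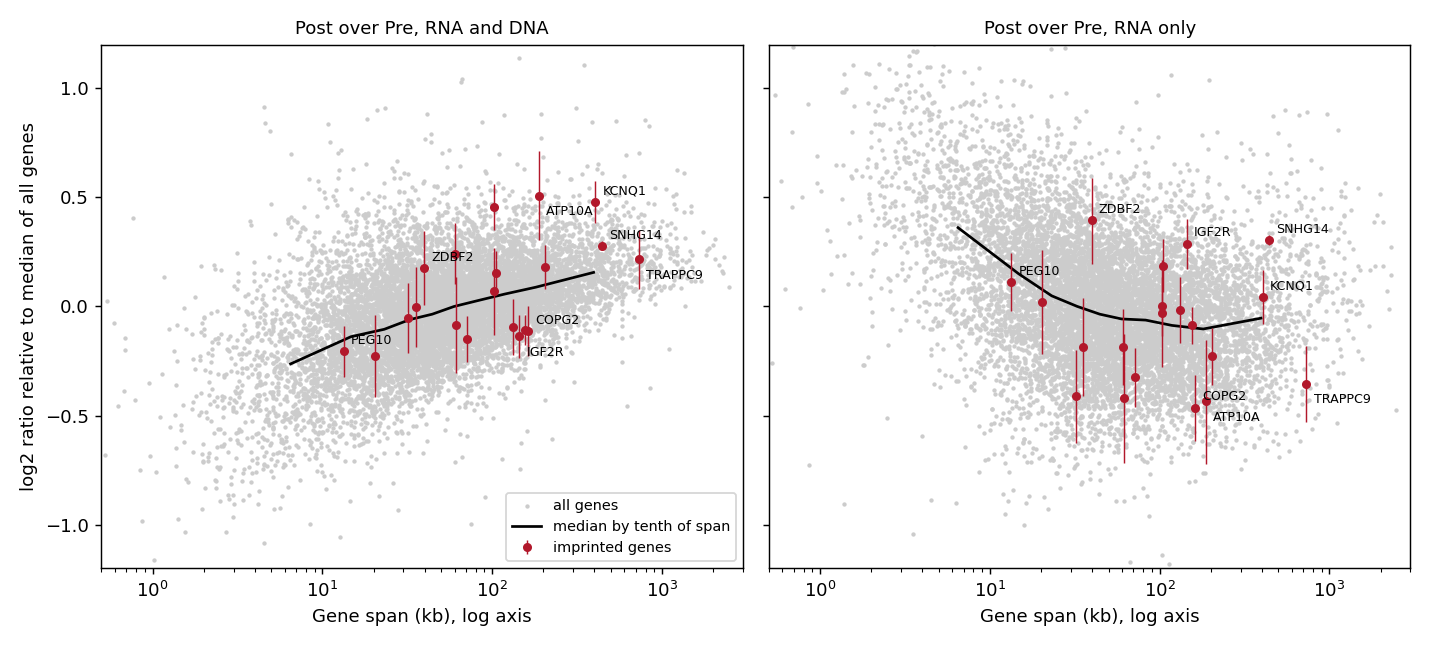
Log2 ratio relative to the all-gene median against gene span in kb (log axis) for Post over Pre, RNA and DNA on the left and Post over Pre, RNA only on the right. Grey points are 10262 genes that averaged 10 RPM or more (4 and 48 of them lie beyond the axis), the line joins their medians in 10 groups of equal size by span, and red points are the 20 members with 95% intervals for counting error; ATP10A and TRAPPC9 lie above 0 on the left and below 0 on the right.

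With both factors in a single additive model over 11564 genes, which leaves 1 residual degree of freedom and treats the 2 libraries of each order as replicates, edgeR called 0 of 20 members at an adjusted p of 0.05. It called 2 of all genes, both higher in Post. At an unadjusted p of 0.05 it had 0 members and 357 genes. DESeq2 also called 0 of 20 members, with 26 of all genes.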

How the data were processed

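Nuclear poly(A) RNA was measured in 4 libraries of H9 cells, 1 for each condition, grouped by the sample titles. The deposited values are raw counts of deduplicated reads for each gene symbol, which the authors made from reads aligned to GRCh38, and no normalization had been applied. By the study's methods, barcodes were matched with Bowtie 1.3.1, adapters were trimmed with Trim Galore 0.6.10, RNA reads were aligned with STAR 2.7.11b and those of unique placement were kept with SAMtools. Duplicates were removed by position and molecular identifier, and a custom script counted reads per gene. The annotation and strand setting of that counting are not given in the sources used here. Another 60 barcode columns of the tables were left out for lack of a label that names their condition. A gene absent from a library's table was set to 0.

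The members, the gene lists and the rules were chosen with earlier results of these data known. Every member is accounted for. Members that averaged 10 RPM or more are given in each library, the others by counts and range except for partners of a named locus, and of each other list the 4 most abundant genes are named. CARS1 and WARS1 were matched through older symbols. Ratios were taken as log2 after adding 1 RPM, and 2-fold means a difference of 1 on that scale after subtraction of the median over genes at 10 RPM or more (at 1 RPM or more for medians over lists). Intervals for levels are 95% exact Poisson intervals, and those for ratios come from the exact binomial interval of a pair of counts, for counting error only. A count of 0 was given an upper limit of 3 counts. Gene spans, exon lengths and overlaps came from GENCODE release 44 on GRCh38, and promoters from RefSeq on GRCh38.p14. The edgeR and DESeq2 fits used order of RT and DNA profiling as factors, with Benjamini-Hochberg adjustment over all genes fitted. The fold rule and the edgeR fit were also run on simulated counts with known changes. The alternatives were other scalings, pseudocounts, minimum levels, folds and lengths, thinning to the smallest total, and leaving out members that overlap another annotated gene. The software was edgeR 4.0.16 and DESeq2 1.42.0 in R 4.3.3, and scipy 1.17.1, pandas 2.3.3, numpy 2.4.6 and matplotlib 3.10.9 in Python 3.11.15.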

Additional observations from a re-analysis of the deposited data

Results flagged for a closer look

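For 5 members the ratio of Post over Pre lay on opposite sides of the all-gene median with and without DNA, with both counting intervals clear of it. The difference of the 2 log2 ratios, with DNA minus without DNA, was 0.94 for ATP10A, 0.57 for TRAPPC9, 0.43 for ZNF331, 0.41 for GRB10 and -0.42 for IGF2R. These are 5 of the 20 members that averaged 10 RPM or more (25%), against 10.2% of 11564 genes under the same rule. The rule is met more easily by abundant genes, whose counting intervals are narrower, and the shares were not matched for level or span. The group of all genes with a median span of 181 kb had median ratios of 0.09 with DNA and -0.10 without DNA. Each of the 5 differences comes from 4 libraries without replicates and was not tested. The library Post, RNA only, in which the 6 clone-named genes took 34.8% of the counts, enters all 5 values, and its part in them was not tested.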

How the results depend on the processing

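Across 126 recomputed values under other settings, 117 moved by less than their counting interval or, for counts, by less than 1.5 times, and 9 moved further. The count of members 2-fold or more apart was 0 in all 4 comparisons under the other scalings, the other pseudocounts, thinning and a minimum of 1 RPM. It became 1 without a minimum level in Post over Pre, RNA and DNA (MEG3), and in RNA and DNA over RNA only, Post, it became 1 at 1.5-fold and 1 where the all-gene median was not subtracted (ATP10A, at 1.14). The member median of Post over Pre, RNA only, was -0.44 where the all-gene median, here -0.36 over 21700 genes, was not subtracted and 0.32 over the 5 members left when those overlapping any annotated gene were dropped, against -0.08. The other 38 medians moved by less than the counting interval of the member at the median. In RNA and DNA over RNA only, Post, that interval was wide, with a half-width of 0.47. There the median went from 0.01 to -0.42 over the same 5 members without overlap, so it is not shown to be stable. All main medians lie within 0.08 of 0, so their signs carry no weight. The relative ratio of SNHG14 without DNA was 0.25 with 5 RPM added and -0.13 without subtraction, and with DNA it was 0.18 without subtraction. No paired analysis was possible because the libraries carry no replicate numbers, and the additive model is the fit in which DNA profiling serves as a block. Depth limits the 10 members under 1 RPM, whose counts were 0 to 14.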

Other observations

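The factors that keep imprints and the further imprinted genes also stayed within 2-fold of the all-gene median. Of the 13 maintenance factors that averaged 10 RPM or more, SETDB1, the histone methyltransferase recruited by TRIM28, had the lowest relative log2 ratio in Post over Pre, RNA only (-0.63), and TRIM28 had the highest (0.56). With DNA these values were -0.21 and -0.14. Among the 8 further imprinted genes at that level, DLGAP2, a scaffold gene of the synapse, had the highest ratio in RNA and DNA over RNA only, Post (0.52), and PWRN1 in Post over Pre, RNA and DNA (0.41). These genes were named after their values were seen. The 10 primed pluripotency markers had median ratios of 0.14 and -0.31 in Post over Pre without and with DNA, relative to the median of 21700 genes, where the members had -0.08 and -0.05.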
